A study of Mus musculus with 2 samples.

Results

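The genes described here are 10 members of the interleukin-1 (IL-1) system, chosen by symbol: the ligand genes Il1a, Il1b, Il1f9 and Il18, the antagonist gene Il1rn, the receptor genes Il1r2 and Il1rap, the inflammasome sensor gene Nlrp3, and the inflammatory caspase genes Casp1 and Casp4. All 10 were found among the 28692 genes listed for both libraries, and each had unique molecular identifiers (UMIs, 1 per captured transcript molecule) in both. They were followed across the GR-1+ cells of mammary tumors grown from the mouse breast carcinoma line 4T1. Female BALB/c mice of 8 to 10 weeks received in the mammary fat pad either the parental cells, which resist anti-PD1 antibody (4T1p), or cells mutagenised with MNNG into a polyclonal population that responds to it (4T1m). Both groups of mice had been given anti-PD1 for 2 weeks, so no untreated tumor enters the comparison. Tumors were digested with collagenase IV and DNase I, cells bearing GR-1 (the epitope shared by Ly6G and Ly6C) were enriched on magnetic beads, and 1 single-cell 3′ library was sequenced per tumor type.

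IL-1α and IL-1β are cytokines of myeloid cells that signal through the receptor IL-1R1 together with the accessory chain IL-1RAP, and drive fever, neutrophil recruitment and the production of further cytokines. The signal is held in check by a receptor antagonist (Il1rn) that occupies IL-1R1 without activating it, and by the decoy receptor IL-1R2, which binds the ligands and transmits nothing. IL-1β and IL-18 are made as inactive precursors and cut by caspase-1 within inflammasomes, the best known of which is assembled by NLRP3. Its transcript has to be induced before the complex can form, and IL-1β itself is well known in tumors for supporting immature myeloid cells. UMI counts report transcripts only, not cleavage or release of the proteins.

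Sequences at the start sites of the 3 genes on which the balance of agonist and antagonist rests are shown for reference (RefSeq, GRCm38.p6, the 250 bases before and 50 bases after each start site, read 5′ to 3′ on the strand of the gene). Capitals mark matches, on either strand, to simple letter patterns: TATAAA for the TATA box, TGANTCA for AP-1, TTNNGNAAT for C/EBP, GAGGAA for the PU.1 core and, for NF-κB, GGG and TTCC set 3 free bases apart. The capitals in Il1b (chr2:129371090-129371389, minus strand) are C/EBP letters and a TATA box, those in Il1a (chr2:129309923-129310222, minus strand) a PU.1 core, a TATA box and AP-1 letters, and those in Il1rn (chr2:24336610-24336909, plus strand, the first of 3 listed start sites) AP-1 and NF-κB letters.
Il1b: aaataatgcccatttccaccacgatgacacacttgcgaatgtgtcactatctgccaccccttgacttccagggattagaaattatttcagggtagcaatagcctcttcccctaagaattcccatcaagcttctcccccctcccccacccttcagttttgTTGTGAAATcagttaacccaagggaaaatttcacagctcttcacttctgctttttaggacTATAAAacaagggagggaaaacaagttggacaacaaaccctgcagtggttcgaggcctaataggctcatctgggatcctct
Il1a: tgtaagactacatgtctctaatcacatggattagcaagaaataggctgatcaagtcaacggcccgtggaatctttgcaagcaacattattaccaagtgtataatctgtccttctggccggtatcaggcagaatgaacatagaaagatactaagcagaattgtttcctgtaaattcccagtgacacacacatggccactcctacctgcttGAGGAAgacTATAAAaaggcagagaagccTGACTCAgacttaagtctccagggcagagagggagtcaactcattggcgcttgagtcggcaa
Il1rn: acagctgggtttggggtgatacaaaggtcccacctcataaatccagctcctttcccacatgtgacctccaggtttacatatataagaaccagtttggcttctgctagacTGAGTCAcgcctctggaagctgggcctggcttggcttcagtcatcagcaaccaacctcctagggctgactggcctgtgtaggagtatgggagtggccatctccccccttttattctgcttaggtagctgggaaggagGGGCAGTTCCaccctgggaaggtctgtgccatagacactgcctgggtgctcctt
The TATA box stands 31 bases before the start of Il1b and 32 before that of Il1a. Start sites 2 and 3 of Il1rn, not printed here, have C/EBP letters, and site 3 has the TATA pattern 14 bases after the start. Such letters are common: among 32851 promoters of this length, 13.6% hold the TATA pattern, 11.5% the C/EBP pattern, 7.81% the AP-1 pattern, 28.3% the PU.1 core and 5.56% the NF-κB pattern. The NF-κB letters were found at all 3 start sites of Il1rn and at both of Casp4, in 5 of the 14 promoters listed for the members. These 5 are not separate sequences. The promoters of both Casp4 start sites overlap and share the same NF-κB letters, as do those of Il1rn start sites 2 and 3. The count of 5 was therefore not compared with the share over all promoters. A match is a description of letters and does not show that a factor binds there.

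The genes lie in several groups on the mouse genome (GRCm38). Il1a and Il1b are neighbours on chromosome 2, 54597 bases apart on the minus strand, and Il1f9 and Il1rn lie 143284 bases apart elsewhere on the same chromosome. Casp1 and Casp4 are 1562 bases apart on chromosome 9, which also carries Il18, whereas Il1r2, Il1rap and Nlrp3 are on chromosomes 1, 16 and 11. All are protein-coding, and because each UMI stems from the 3′ end of 1 transcript, counts were set side by side between genes without a correction for length.

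After limits on genes, UMIs and mitochondrial share and the removal of likely doublets, 3163 cells with 15777969 UMIs remained, 1115 from the library labelled 4T1p and 2048 from that labelled 4T1m, and no cell barcode occurred in both. A Ptprc UMI was found in 507 of these cells labelled 4T1p and 1541 labelled 4T1m. The published analysis left out cells without one as non-immune, whereas here they were kept unless stated. Over all deposited barcodes the median was 2066 UMIs for the library labelled 4T1p and 2763 for that labelled 4T1m. The published description of these libraries has the medians the other way round, so every direction between tumors given below rests on the labels. With a single library per tumor there is no replicate: tumor, mouse, library and cell handling cannot be told apart, no test was made, and all intervals are exact 95% intervals that cover counting error only. Levels are counts per 1000000 UMIs (CPM) of the summed cells of a group.

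Clusters were formed without the 10 members and their pathway list, and named from marker genes. Granulocytic-like cells numbered 1242 in 4 clusters and monocytic-like cells 1312 in 4 clusters, while 36 B cell-like cells, 27 T cell-like cells and 1 unnamed cluster of 546 cells with a median of 895.5 UMIs made up the rest. All 8 granulocytic markers were detected in the granulocytic-like cells at a summed level of 167017 CPM, against 1096 CPM in the monocytic-like cells. The 10 monocytic markers summed to 25254 CPM in the monocytic-like and 625 CPM in the granulocytic-like cells. Among the granulocytic-like cells, cluster 0 (549 cells) was led by Mirt1, Irg1, Csf1 and G0s2, cluster 5 (269 cells) by Slc2a3, Steap4, Prok2 and Sh2d3c, cluster 6 (250 cells) by Ccdc126, Ciart, Dedd2 and Tra2a, and cluster 8 (174 cells) by Camp, Ngp, Ltf and Ly6g, genes of maturing neutrophils. Monocytic-like cluster 2 (429 cells) was led by Thbs1, Vcan, Ednrb and Il6, cluster 3 (357 cells) by Cxcl9, Ccl5, Cx3cr1 and C6, cluster 4 (327 cells) by Ccl8, Tmem176b, Aif1 and AW112010, and cluster 7 (199 cells) by the cell division genes Birc5, Ube2c and Top2a with 2810417H13Rik. Clusters 2 and 3 were deep, with medians of 10326 and 13162 UMIs, and clusters 4 and 7 shallow, with 1254 and 1422.

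Il1b was the most abundant member by far, with 80070 of the UMIs against 19405 for Il1a, 12385 for Nlrp3, 10260 for Il1rn, 4492 for Il1r2, 2700 for Casp4, 2669 for Il1f9, 735 for Il1rap, 486 for Casp1 and 266 for Il18. A UMI of Il1b was found in 76.0% of all cells (95% interval, 74.5 to 77.5). Because granulocytic-like and monocytic-like cells differ in RNA content, detection was also counted after thinning each cell of at least 1000 UMIs to 1000. Cells with fewer UMIs were left out of every thinned value. They were 168 of 621 monocytic-like and 22 of 244 granulocytic-like cells labelled 4T1p. Among those labelled 4T1m they were 64 of 691 and 79 of 998. In the unnamed cluster 313 of 546 cells were left out, and in cluster 4 124 of 327.

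**Figure D1:**
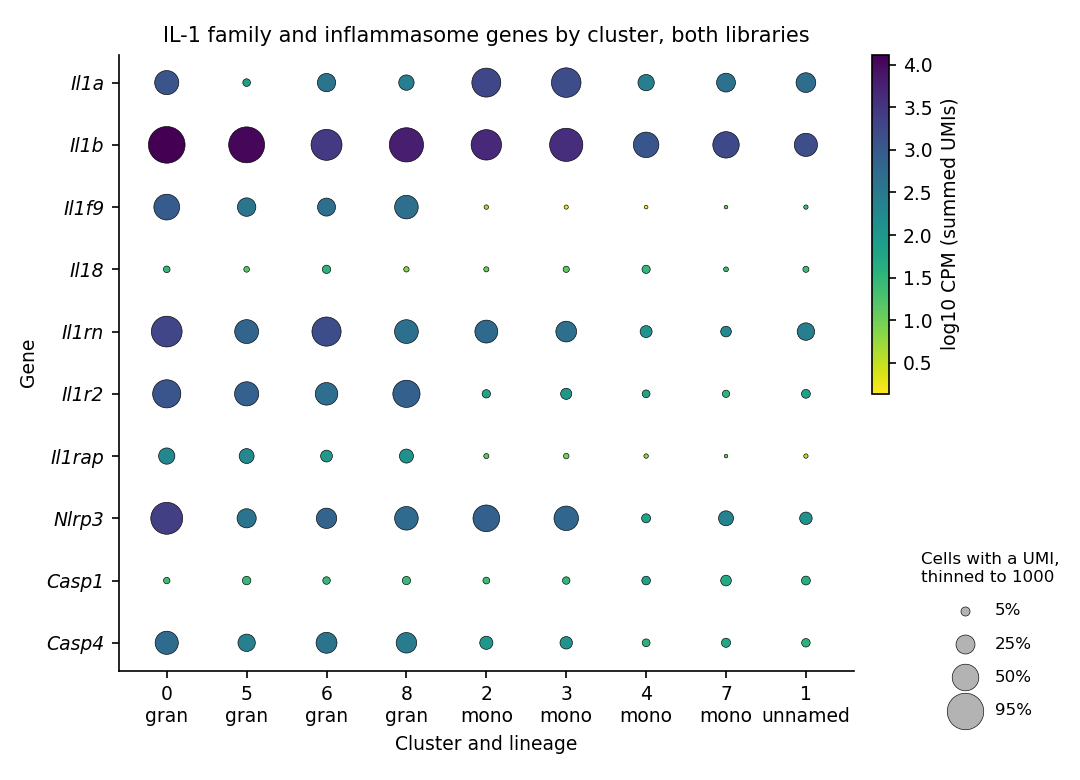
Levels of the 10 genes (rows) in the 9 myeloid and unnamed clusters (columns, with their lineage), both libraries summed. Colour gives log10 CPM and dot area the share of cells with a UMI after thinning to 1000 UMIs (shallower cells left out). Il1b has the highest level of the 10 genes in every cluster shown. Il1f9, Il1r2, Il1rap and Casp4 have their highest CPM in the 4 granulocytic-like clusters, and Il1a is highest in clusters 2, 3 and 0.

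The ligand genes parted between the lineages. Il1b stood at 9439 CPM (9342 to 9536) in granulocytic-like and 3992 CPM (3953 to 4030) in monocytic-like cells, a log2 ratio of 1.24 (1.22 to 1.26). With both libraries summed, the mean was 29.3 UMIs per granulocytic-like cell and 32.0 per monocytic-like cell. The order per cell differed between the libraries. In that labelled 4T1p, Il1b UMIs were more numerous per granulocytic-like cell (7465 in 244 cells) than per monocytic-like cell (9893 in 621). In that labelled 4T1m it was the reverse (28882 in 998 and 32080 in 691). Median depths were 2712 and 2188 UMIs in the former library and 2472 and 8538 in the latter. By CPM, Il1a went the other way from Il1b, with 689 CPM (663 to 716) in granulocytic-like and 1539 CPM (1516 to 1563) in monocytic-like cells, a log2 ratio of -1.16 (-1.22 to -1.10). This was mainly a feature of the library labelled 4T1m, where the log2 ratio for Il1a was -1.55, while in that labelled 4T1p it was -0.22. In the latter, Il1a in granulocytic-like cluster 0 (1748 CPM) stood above monocytic-like clusters 2 (1429 CPM) and 3 (1396 CPM). Detection did not follow that order. In thinned cells of that library Il1a was found in 46.3% of cluster 0, 46.6% of cluster 2 and 56.6% of cluster 3. In cluster 0, 1 cell held 104 of the 728 Il1a UMIs. With both libraries summed, Il1a was short of 2-fold between the lineages as a mean over cells and in thinned cells. Il1f9, which encodes the IL-36γ cytokine of the IL-1 family, had 2605 UMIs in granulocytic-like cells (676 CPM) and 39 in monocytic-like cells (3.71 CPM), a log2 ratio of 7.51 (7.06 to 8.01). Il18 was scarce in both lineages, at 22.1 and 14.8 CPM.

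Free RNA from granulocytes can set a floor under the monocytic-like values. Suppose that the S100a8 and S100a9 UMIs of the monocytic-like cells came from granulocytic RNA carrying each member in its granulocytic proportion. That RNA would then have brought 11.3 of their 12 Il1f9 UMIs in the library labelled 4T1p and 26.8 of 27 in that labelled 4T1m. On that assumption, Il1f9 in monocytic-like cells could not be told from background. Whether all these S100a8 and S100a9 UMIs were free RNA was not tested. In the library labelled 4T1m they stood at 936 CPM in monocytic-like, 272 CPM in B cell-like and 728 CPM in T cell-like cells. The same measure gave 1.57% and 1.17% of the Il1b UMIs, 0.351% and 0.210% of those of Il1a, 0.772% and 1.12% of those of Nlrp3, and at most 7.40% of those of Il1r2. In the 36 B cell-like cells, with a median of 3767 UMIs, Il1b had 6 UMIs in 6 cells (33.3 CPM) and Il1f9, Il1rn and Il18 had none. Among the 27 T cell-like cells 1 cell held 117 of the 127 Il1b UMIs.

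The restraining genes Il1rn and Il1r2 were higher in granulocytic-like cells, as was the agonist gene Il1b. Il1rn, the receptor antagonist, had 1272 CPM (1236 to 1308) there and 482 CPM (469 to 496) in monocytic-like cells, a log2 ratio of 1.40 (1.34 to 1.46). Il1r2, the decoy receptor, had 935 and 76.7 CPM, a log2 ratio of 3.61 (3.50 to 3.72). The accessory chain gene Il1rap followed with 157 and 11.9 CPM (log2 ratio 3.72, 3.44 to 4.01). The signalling receptor gene Il1r1 was nearly undetected, with 1 UMI in 1242 granulocytic-like cells and 5 in 1312 monocytic-like cells, beside 3599 and 807 UMIs of Il1r2. Low capture of a transcript and its absence cannot be told apart at these counts. The unnamed cluster held 16 of the 24 Il1r1 UMIs of all cells, beside 73 UMIs of Il1r2.

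The inflammasome genes did not move as a block. Nlrp3 reached 1356 CPM in granulocytic-like and 666 CPM in monocytic-like cells, a log2 ratio of 1.03 (0.97 to 1.08). Casp4, which encodes the mouse sensor of intracellular lipopolysaccharide, had 414 and 99.2 CPM (log2 ratio 2.06, 1.95 to 2.18). Casp1, whose product cleaves the precursors of IL-1β and IL-18, was low in both, with 26.7 CPM (21.8 to 32.4) and 31.7 CPM (28.4 to 35.3), and the interval of its log2 ratio spanned 0 (-0.58 to 0.08).

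In all, 7 of the 10 members were at least 2-fold higher in granulocytic-like cells and 1, Il1a, at least 2-fold lower, with both libraries summed. Of the 9192 genes with at least 50 UMIs, 10.6% were at least 2-fold higher and 54.8% at least 2-fold lower, with a median log2 ratio of -1.24 against 1.32 for the members. Within single libraries, 6 members were at least 2-fold higher and 0 lower in that labelled 4T1p, where 11% of genes were higher and 50.5% lower, and 5 members were higher and 1 lower in that labelled 4T1m, where 10.4% of genes were higher and 54.5% lower. Il1b itself was past 2-fold in the library labelled 4T1p (log2 ratio 1.94) and short of it in that labelled 4T1m (0.93). Nlrp3 was short of it in each library alone, at log2 ratios of 0.92 (4T1p) and 0.87 (4T1m). After thinning, the share of cells with a UMI was higher in granulocytic-like cells for Il1b (87.9% against 63.6%) and Nlrp3 (50.2% against 34.8%). The same held for Il1rn (56.6% against 25.8%) and Casp4 (31.9% against 8.80%), among others. Il1a (26.7% against 48.0%) and Casp1 (2.98% against 3.61%) were on the other side. No share over all genes stands beside these values.

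**Figure D2:**
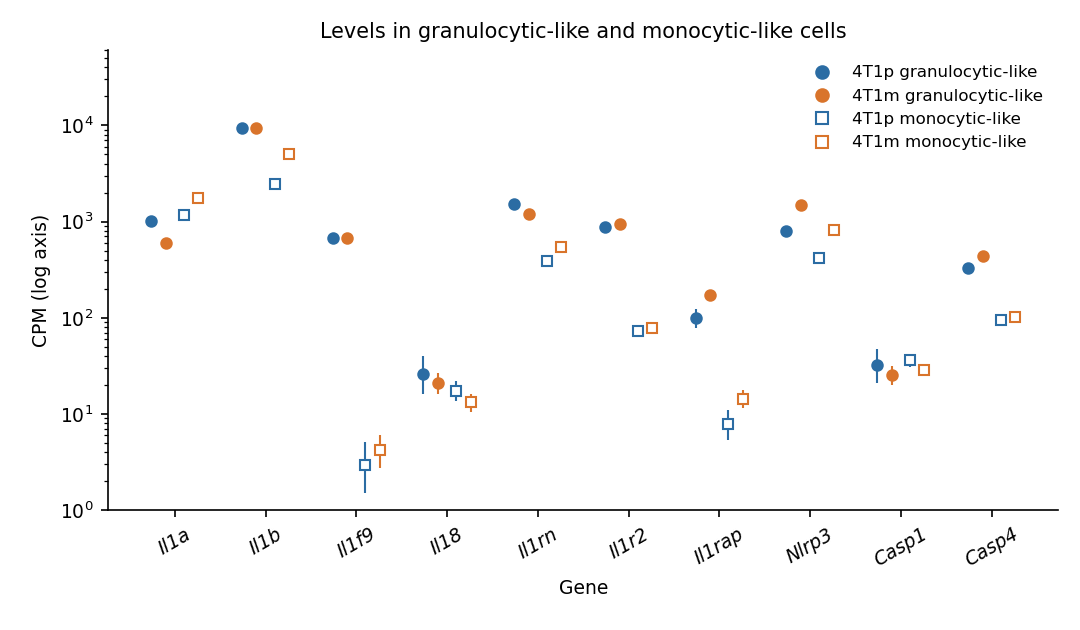
CPM (log axis) of the 10 genes (horizontal axis) in granulocytic-like (filled circles) and monocytic-like cells (open squares) of the libraries labelled 4T1p (blue) and 4T1m (orange), with exact 95% Poisson intervals. Within each library (same colour), the circle lies above the square for Il1b, Il1f9, Il1rn, Il1r2, Il1rap, Nlrp3 and Casp4, and below it for Il1a.

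Within the granulocytic-like cells the members separated the clusters. Il1b was 13086 CPM in cluster 0 and 11226 CPM in cluster 5, the 2 highest levels of any cluster, then 6102 CPM in cluster 8 and 2882 CPM in cluster 6, with no overlap between the intervals of neighbours in that order. Cluster 0 also held the highest levels of Nlrp3 (2356 CPM), Il1rn (1929 CPM), Il1r2 (1177 CPM), Il1f9 (951 CPM), Casp4 (552 CPM) and Il1rap (193 CPM, overlapping cluster 5). Cluster 5 differed from cluster 0 by only 0.22 on the log2 scale for Il1b, but by 3.98 for Il1a (1228 against 77.9 CPM) and 2.61 for Nlrp3 (2356 against 385 CPM), and its Il1rn level was 680 CPM against 1929 CPM. These 4 differences kept their direction in each library taken alone. Over cluster 5, cluster 0 was at least 2-fold higher for 6 of the 10 members, beside 11.7% of genes. Cluster 5 thus carried 144 Il1b UMIs for each Il1a UMI, or 286 in the library labelled 4T1p (where Il1a had 2 UMIs, interval 78.7 to 2363) and 136 in that labelled 4T1m (97.7 to 196).

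In cluster 6 the ratio of Il1b to Il1rn was the lowest of the myeloid clusters. Its Il1rn level, 1544 CPM (1434 to 1660), was the second highest, while Il1b was the lowest of the granulocytic-like clusters. The ratio of Il1b to Il1rn UMIs there was 1.04 (0.864 to 1.25) in the library labelled 4T1p and 2.26 (2.03 to 2.52) in that labelled 4T1m. In every other myeloid cluster of either library the ratio was at least 4.12, and in cluster 5 it was 18.4 (12.8 to 27.4) and 16.3 (14.5 to 18.4). Cluster 5 and cluster 6 had similar depth, with medians of 1533 and 1710 UMIs per cell. Thinned to 1000 UMIs, Il1b was detected in 81.0% and 93.2% of cells of cluster 5 in the libraries labelled 4T1p and 4T1m. In cluster 6 the shares were 64.2% and 69.3%. For the library labelled 4T1p the intervals overlapped, at 58.1 to 94.6 on 21 cells of cluster 5 and 49.8 to 76.9 on 53 of cluster 6. Of 8 members tested, cluster 5 was at least 2-fold above cluster 6 for Il1b alone (12.1% of genes were) and at least 2-fold below it for Il1a and Il1rn (17.8% of genes were).

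**Figure D3:**
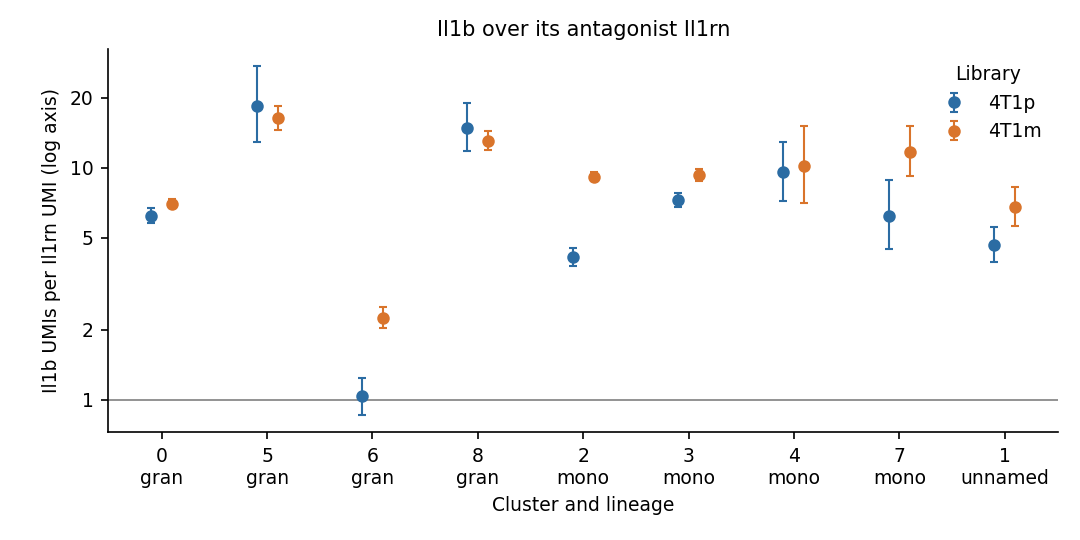
Il1b UMIs per Il1rn UMI (vertical, log axis) in each myeloid and unnamed cluster (horizontal) of the libraries labelled 4T1p (blue) and 4T1m (orange), with exact 95% binomial intervals and a line at equal counts. Cluster 6 lies lowest, at 1.04 and 2.26, and cluster 5 highest, at 18.4 and 16.3.

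Among monocytic-like cells the deep clusters 2 and 3 carried most of the signal. Il1b was 4731 and 4001 CPM there against 1721 CPM in cluster 7 and 1146 CPM in cluster 4, and Il1a was 1894 and 1534 CPM against 413 and 269 CPM. Nlrp3 spanned 827 CPM in cluster 2 to 67.7 CPM in cluster 4. Clusters 2 and 3 differed by less than 2-fold for all 9 members tested (9.69% of genes were past it), a count near the background share. Cluster 4 departed from cluster 3 by log2 ratios of 3.28 for Nlrp3, 2.51 for Il1a, 2.02 for Il1rn and 1.80 for Il1b, all higher in cluster 3. In total 5 of 8 members were at least 2-fold higher in cluster 3 (24.2% of genes were) and 1, Casp1, at least 2-fold lower (2.4% of genes were). That Casp1 difference was past 2-fold in the library labelled 4T1m and not in that labelled 4T1p. With both libraries summed, Casp1 was 67.7 CPM (50.1 to 89.4) in cluster 4 and 23.2 CPM (19.1 to 28.0) in cluster 2. Neighbours in the order of Casp1 levels overlapped throughout, and in the library labelled 4T1p cluster 7 (77.4 CPM) stood above cluster 4 (54.9 CPM). The UMIs were spread unevenly among cells. In cluster 2 the top 10% of cells held 44.2% of its Il1b UMIs and 14.8% of all its UMIs, with a median of 21 Il1b UMIs per cell, a highest value of 417 and 54 cells at 0.

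Single cells tended to carry the ligands together. After thinning, 81.1% of monocytic-like cells with an Il1a UMI also had an Il1b UMI, against 47.5% of those without. The contrast was present within cluster 2 (78.5% against 46.7%) and within cluster 3 (85.0% against 67.5%). In cluster 0 nearly all cells had Il1b, with 96.3% and 95.6%. Among granulocytic-like cells, 49.3% of those with Il1f9 and 48.5% of those without it had an Il1r2 UMI, although both genes were highest in cluster 0.

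The comparison of the tumors asks whether IL-1 genes differ between GR-1+ cells of the anti-PD1 sensitive and resistant model. Granulocytic-like cells made up 48.7% of the library labelled 4T1m and 21.9% of that labelled 4T1p, and the monocytic-like share was 33.7% and 55.7%, after bead enrichment that can set such shares. Over all cells Il1b was 5982 CPM in the library labelled 4T1m and 3343 CPM in that labelled 4T1p, a figure that mixes lineages. Monocytic-like cells gave 51.8% and 54.6% of the Il1b UMIs of the libraries labelled 4T1m and 4T1p.

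In granulocytic-like cells as a whole the Il1b levels did not differ beyond counting error, at 9472 CPM (9363 to 9581) in the library labelled 4T1m and 9314 CPM (9104 to 9528) in that labelled 4T1p, a log2 ratio of 0.02 (-0.01 to 0.06). The mix of clusters differed, with clusters 0, 5, 6 and 8 holding 128, 29, 62 and 25 of the 244 cells labelled 4T1p and 421, 240, 188 and 149 of the 998 labelled 4T1m. Within clusters 6 and 8 Il1b was higher in the library labelled 4T1m, 3149 against 2073 CPM and 6265 against 5365 CPM. The 4T1m value was higher for Nlrp3, 1503 against 794 CPM (log2 ratio 0.92, 0.80 to 1.04), for Il1rap, 172 against 99.8 CPM (0.78, 0.44 to 1.14), and for Casp4, 437 against 326 CPM (0.42, 0.23 to 0.62). It was lower for Il1a, 604 against 1012 CPM (-0.74, -0.86 to -0.62), and for Il1rn, 1204 against 1531 CPM (-0.35, -0.44 to -0.25). Of the 811 Il1a UMIs labelled 4T1p, 104 were in 1 cell. Il1f9 stood at 677 and 676 CPM. None of the 10 members was past 2-fold in these cells, where 10.8% of 4360 genes were. In cluster 0, which held 128 and 421 of the cells at medians of 3193 and 2831 UMIs, Nlrp3 was past it, with 2720 CPM in the library labelled 4T1m and 1225 CPM in that labelled 4T1p (log2 ratio 1.15, 1.02 to 1.29), beside 8.46% of genes at least 2-fold higher there. Cluster 8 (25 and 149 cells) had 4 of 8 members at least 2-fold higher in the library labelled 4T1m, namely Il1a, Il1rap, Nlrp3 and Casp4, beside 15.8% of genes, on only 25 cells of the other library. In clusters 5 and 6 none of the 7 members tested in each was past 2-fold (19.3% and 11% of genes were).

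In monocytic-like cells Il1b was 4978 CPM (4924 to 5033) in the library labelled 4T1m and 2430 CPM (2382 to 2478) in that labelled 4T1p, a log2 ratio of 1.03 (1.00 to 1.07) that sits at the 2-fold mark. Nlrp3 was 821 against 421 CPM (0.96, 0.89 to 1.04), Il1rap 14.4 (11.6 to 17.7) against 7.86 CPM (5.38 to 11.1), Il1a 1766 against 1181 CPM (0.58, 0.53 to 0.63) and Il1rn 538 against 394 CPM (0.45, 0.36 to 0.54), all higher in the library labelled 4T1m. Casp1 was lower there, 28.9 against 36.1 CPM (-0.32, -0.64 to -0.0011). Il1b was thus the 1 member past 2-fold among 9 tested (9.62% of 8759 genes were, 7.68% upwards and 1.94% downwards), and the median log2 ratio of the members was 0.45 against 0.12 for all genes. Il1b fell just short of 2-fold in several other settings, with its lowest log2 ratio, 0.91, in clusters 2 and 3 alone and 0.96 with a common mix of clusters in both libraries.

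The clusters that made up the monocytic-like cells differed between the libraries: clusters 3 and 4 held 185 and 242 of the 621 cells of that labelled 4T1p, and cluster 2 held 334 of the 691 of that labelled 4T1m. Median depth was 2188 UMIs per cell in the former and 8538 in the latter. Within cluster 2, at medians of 9983 and 10475 UMIs, Il1b was 2437 CPM in the library labelled 4T1p and 5337 CPM in that labelled 4T1m (log2 ratio 1.13, 1.07 to 1.19). Within cluster 3, at medians of 13914 and 12697 UMIs, it was 2957 and 5093 CPM (0.78, 0.74 to 0.83). At least 2-fold higher in the library labelled 4T1m were 3 of 9 members tested in cluster 2 (Il1b, Il1rap and Nlrp3, with 5.8% of genes) and 3 of 4 in cluster 7 (Il1a, Il1b and Nlrp3, with 7.36% of genes). None of the 8 members tested in cluster 3 and none of the 3 tested in cluster 4 was past 2-fold (8.41% and 6.6% of genes were). The unnamed cluster also had none among 5 tested (8.8% of genes). The other members had too few UMIs in these clusters to be tested. The summed level of 10 genes induced by tissue dissociation was 11273 CPM in the monocytic-like cells of the library labelled 4T1p and 6189 CPM in that labelled 4T1m, the opposite order to Il1b and Nlrp3, and its part in these differences was not tested. Il1b UMIs per Il1rn UMI numbered 6.17 (5.85 to 6.51) in the library labelled 4T1p and 9.26 (8.94 to 9.59) in that labelled 4T1m in monocytic-like cells, and 6.08 (5.73 to 6.47) and 7.87 (7.60 to 8.15) in granulocytic-like cells.

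**Figure D4:**
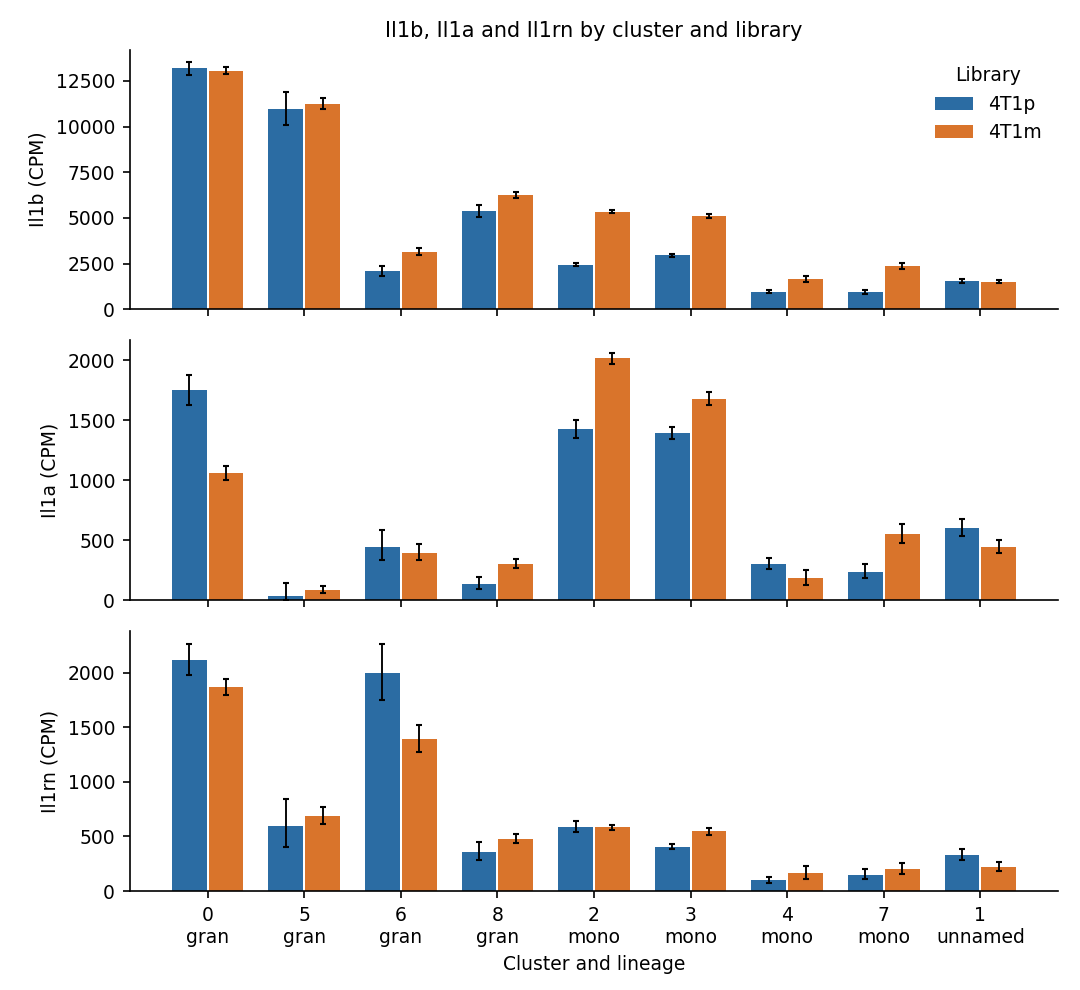
CPM of Il1b, Il1a and Il1rn (panels, linear axes from 0) in each myeloid and unnamed cluster for the libraries labelled 4T1p (blue) and 4T1m (orange), with exact 95% Poisson intervals. Il1b is higher in the library labelled 4T1m in monocytic-like clusters 2, 3, 4 and 7 and in granulocytic-like clusters 6 and 8, with overlapping intervals in clusters 0 and 5, while Il1a in cluster 0 is 1748 CPM in the library labelled 4T1p and 1061 CPM in that labelled 4T1m.

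**Figure D5:**
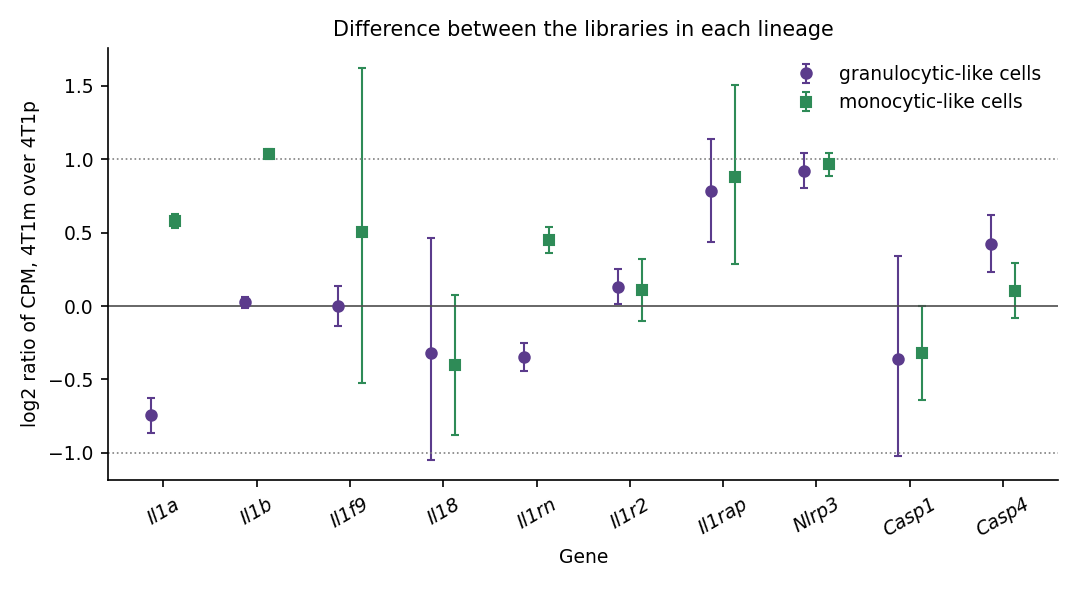
Log2 ratio of CPM, 4T1m over 4T1p (vertical), of the 10 genes (horizontal) in granulocytic-like (circles) and monocytic-like cells (squares), with exact 95% binomial intervals and dotted lines at 2-fold. Il1a and Il1rn lie below 0 in granulocytic-like and above 0 in monocytic-like cells, and Nlrp3 is at 0.92 and 0.96.

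Of the wider pathway, 44 of 46 listed genes were found. Between the lineages 32 had at least 50 UMIs, of which 7 were at least 2-fold higher and 14 at least 2-fold lower in granulocytic-like cells (10.6% and 54.8% of all genes), with a median log2 ratio of -0.66 beside -1.24 for all genes. The higher ones included Irak2, a kinase of the IL-1 receptor signal (276 against 70.3 CPM), Irak3, its inhibitor (72.2 against 26.8 CPM), Mefv, which encodes pyrin (282 against 42.5 CPM), and Il18rap, an IL-18 receptor chain (149 against 4.28 CPM). The lower ones included Pycard, the adaptor that links NLRP3 to caspase-1 (29.6 against 142 CPM). Among them were also Naip2 and Naip5, sensors of bacterial proteins (10.1 against 42.9 CPM and 2.60 against 19.5 CPM). The ATP receptor genes P2rx4 and P2rx7 were lower too (20.5 against 105 CPM and 11.2 against 37.0 CPM).

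Between the libraries, granulocytic-like cells had 1 pathway gene at least 2-fold higher in that labelled 4T1m and 4 lower among 21 tested (7.5% and 3.26% of all genes), and monocytic-like cells 3 higher and 2 lower among 29 (7.68% and 1.94% of all genes). Mefv was higher in both lineages, 319 against 142 CPM in granulocytic-like and 56.8 against 19.9 CPM in monocytic-like cells. Il18bp, the secreted inhibitor of IL-18, was lower in both lineages. It stood at 20.5 against 65.1 CPM in monocytic-like and 22.0 against 49.9 CPM in granulocytic-like cells (67 and 40 UMIs in the latter). In monocytic-like cells Irak3 (34.8 against 14.2 CPM) and Traf6 (56.3 against 26.5 CPM) were higher, and Tmem176b (125 against 272 CPM) lower. The granulocytic-like genes on the lower side included Ninj1, needed for membrane rupture in lytic cell death (432 against 872 CPM), and Serpinb1a, which inhibits neutrophil proteases (62.3 against 135 CPM, the latter from 12 of 244 cells).

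Over 17 groups of cells (a cluster in 1 library, with at least 30 cells) the genes with the most similar pattern, by Pearson correlation of log2(CPM + 10) among 6360 genes, were Tnf, Cxcl1 and Ccl4 for Il1a (r = 0.93, 0.92 and 0.90) and Cd14, C5ar1 and Csf2rb for Il1b (0.96, 0.95 and 0.94). For Nlrp3 they were Cxcl2, Rab20 and Slfn2 (0.96, 0.95 and 0.95), and for Il1rn they were Lilrb4a, Lilr4b and Emilin2 (0.97, 0.96 and 0.95). Il1r2 was nearest to Csf3r, Il1f9 to Chil1, Il1rap to Il18rap and Casp4 to Fgd3, with r between 0.96 and 0.98. Between members, Il1b correlated with Nlrp3 and Il1rn at r = 0.90 and 0.88, and with Il1a at 0.68. For Casp1 and Il18 the closest genes, Mrpl50 and Chmp2a, had r of 0.83 and 0.85, at under 500 UMIs of the member. The groups include the 35 B cell-like cells of the library labelled 4T1m, with Il1b at 34.1 CPM and no UMI of Il1rn or Il1f9. The weight of that group in the correlations was not tested. The groups share 2 libraries and differ in depth, so these values describe likeness only.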

How the data were processed

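Single-cell RNA of GR-1+ cells from 1 tumor library per condition was analysed. The authors deposited unnormalized UMI counts for each library, made with Cell Ranger against mm10 (GRCm38) and limited to barcodes called as cells. The matrix headers name software version 3.1.0, and no replicate libraries were pooled. From these counts, barcodes with 250 to 5000 genes, at most 27000 UMIs and at most 12.5% mitochondrial UMIs were kept (1128 of 1641 and 2092 of 2749 in the libraries labelled 4T1p and 4T1m), and Scrublet, through scanpy 1.11.5, removed 13 and 44 likely doublets. Gm42418 and AY036118 were left out of totals, where they took 1.76% and 2.06% of UMIs.

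Seurat 5.3.0 with sctransform 0.4.2 gave 3000 variable genes, from which the members and their pathway list were removed, then 11 principal components and Louvain clusters at resolution 0.8. A cluster took the lineage with the higher relative marker score, and stayed unnamed when its median UMIs were under 1/3 of its library's with no own marker among its leading genes. CPM came from summed UMIs with exact Poisson intervals, ratios and shares had exact binomial intervals (95%), and genes with at least 50 UMIs counted as past 2-fold by the ratio alone. The interval code was tested on simulated counts. The rule for naming genes covered all members and pathway genes past 2-fold with at least 200 UMIs. It also covered the 3 nearest genes per member and the 4 leading genes per cluster. Between the lineages only some of the pathway genes that qualified are named, and for some members only the nearest gene is given. Il1r1 was named after its values were seen. Members and lists were chosen with earlier results of these data known. Alternatives covered cell filters, clustering, totals, thinning and thresholds. Promoters came from RefSeq (GRCm38.p6), where all 10 members matched.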

Additional observations from a re-analysis of the deposited data

Results flagged for a closer look

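The difference between the libraries went opposite ways in the 2 lineages for 2 members, with counting intervals on opposite sides of 0. Il1a had a log2 ratio of 4T1m over 4T1p of -0.74 (-0.86 to -0.62) in granulocytic-like cells and 0.58 (0.53 to 0.63) in monocytic-like cells, a gap of 1.32. Il1rn had -0.35 (-0.44 to -0.25) and 0.45 (0.36 to 0.54), a gap of 0.80. With 1 library per tumor the difference was not tested. Of the 811 Il1a UMIs of granulocytic-like cells labelled 4T1p, 104 were in 1 cell. In thinned granulocytic-like cells Il1a was found in 32.9% (26.7 to 39.5) of those labelled 4T1p and 25.2% (22.5 to 28.2) of those labelled 4T1m, with overlapping intervals. In thinned monocytic-like cells the shares were 36.6% (32.2 to 41.3) and 56.1% (52.2 to 60.1). For Il1a the sign was not shared by all clusters: the log2 ratio was -0.72 in granulocytic-like cluster 0 but 1.17 in cluster 8, and 0.50 in monocytic-like cluster 2 but -0.72 in cluster 4. For Il1rn cluster 2 was at -0.02 and cluster 8 at 0.41.

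Barcodes outside the cell limits, which enter no comparison, also carried member transcripts. Above the upper limits on genes and UMIs, 9 members had more than 3 UMIs in the library labelled 4T1p and 10 in that labelled 4T1m, with Il1b at 2102 and 2987 CPM. Above the mitochondrial limit it was 10 members in both libraries, with Il1b at 2021 and 3541 CPM. Under the minimum of genes, 4 members passed in the library labelled 4T1p and 6 in that labelled 4T1m, with Il1b at 430 and 714 CPM.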

How the results depend on the processing

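No paired analysis was possible because each tumor has 1 library. In all, 21 other settings were tried, 2 of them chosen after seeing the data (the unnamed cluster counted with its nearest lineage, and deep monocytic-like clusters only). Il1b stayed above Il1rn in each setting in which their ratio was computed. With main ratios of 6.08 to 9.26 in the lineages of the 2 libraries, that direction had little room to change and says little about stability.

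The number of members past 2-fold between the libraries moved most, and the share of all genes moved with it (given in brackets). In monocytic-like cells, in place of 1 member (9.62%), it was 0 with log-normalization before clustering (9.37%), totals free of mitochondrial and ribosomal protein genes (8.89%), a common mix of clusters (5.73%) and deep clusters only (8.21%). It was 2, Il1rap and Nlrp3, without upper limits on genes and UMIs (11%). It was 3, Il1b and Nlrp3 with Il1rap or Il1a, with at most 5% mitochondrial UMIs (13%), means over cells (21.0%), thinned cells (27.4%) or a 1.5-fold mark (30.6%). With a Ptprc UMI required the 1 member was Il1f9, lower, in place of Il1b (7.97%). In the main setting Il1f9 had too few UMIs in monocytic-like cells to be tested. It had 12 in the library labelled 4T1p and 27 in that labelled 4T1m. On the assumption about free granulocytic RNA made above, these could not be told from background. The call with a Ptprc UMI required needed at least 50 UMIs, so its monocytic-like group included cells from outside that of the main setting. Which cells brought those UMIs was not tested. In the main setting the unnamed cluster had 22 Il1f9 UMIs labelled 4T1p, 21 of them in 1 cell, and 3 labelled 4T1m. In granulocytic-like cells the number of members, in place of 0 (10.8%), was 1, Nlrp3, with a common mix (11.4%). It was 2, Nlrp3 and Il18, with thinned cells (20.1%) and 3, Nlrp3, Il1rap and Il1a, with the 1.5-fold mark (30.8%). The causes were not tested.

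The log2 ratio of Il1b to Il1rn UMIs in granulocytic-like cells labelled 4T1p, 2.61, became 2.85 with a Ptprc UMI required, 2.41 as a mean over cells and 2.43 in thinned cells. In those labelled 4T1m, 2.98 became 3.07 with at most 5% mitochondrial UMIs, 2.90 as a mean over cells and 2.87 in thinned cells. In monocytic-like cells 2.63 (4T1p) became 2.71 as a mean over cells, and 3.21 (4T1m) became 3.31 with at most 5% mitochondrial UMIs and 3.13 in thinned cells.

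Of members whose interval excluded 0, 9 of 9 kept their sign between lineages in 15 settings, 5 of 6 between libraries in granulocytic-like cells in 12 settings (Il1r2 fell to -0.03 as a mean over cells), and 6 of 6 in monocytic-like cells in 14. Depth limits Il18, Casp1 and Il1rap most, with 266, 486 and 735 UMIs.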

Other observations

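The unnamed cluster of shallow cells was nearer to the monocytic-like than to the granulocytic-like cells by marker score. It carried Il1b at 1532 CPM (1426 to 1645) in the library labelled 4T1p and 1515 CPM (1414 to 1620) in that labelled 4T1m. Its Il1a stood at 602 and 445 CPM. Its Il1f9 UMIs came almost entirely from 1 cell, which held 21 of 25. Its content was mixed. Fibroblast and dendritic cell markers stood at 439 and 259 CPM in the library labelled 4T1m, against 1.99 and 0 CPM in that labelled 4T1p. Epithelial or tumor cell markers stood at 177 (4T1p) and 114 CPM (4T1m), against 16.5 and 4.34 CPM in monocytic-like cells.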
